A study of Mus musculus with 2 samples.

Results

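Receptors and Smads of the TGF-beta family were followed in mouse foetal germ cells, as the 10 genes Acvr1b, Acvr2a, Acvr2b, Tgfbr1, Bmpr1a, Bmpr2, Smad2, Smad3, Smad4 and Smad5. They were chosen by symbol, through the Ensembl identifier of each row, and all 10 were among the 42422 genes counted and the 15252 genes that passed the filter on low counts. E12.5 gonads with the mesonephros attached were taken at once (0 h) or cultured for 24 h or 72 h, and Oct4-eGFP positive germ cells were sorted from them by flow cytometry. The medium held DMSO as vehicle, 500 nM BGJ398/Infigratinib, an inhibitor of FGF receptors (FGFRi), or 500 nM PD0325901/Mirdametinib, an inhibitor of MEK1/2 (MEKi). The 10 groups, of 4 libraries each, were XX and XY at 0 h, XX and XY in DMSO at either later time, and XY with FGFRi or with MEKi at either later time. No XX gonads with an inhibitor were among these libraries. Embryos of all groups were wild type offspring of Swiss females and 129svJT2 males carrying the Oct4-eGFP reporter, and the gonads of several embryos were pooled for 1 library. The labels do not say whether the 4 libraries of a group came from separate cultures, so p-values measure the spread between these libraries.

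A ligand of this family binds a type II receptor, which then phosphorylates a type I receptor, and the type I receptor phosphorylates a receptor-regulated Smad. The phosphorylated Smad joins the common partner SMAD4 and enters the nucleus to regulate transcription. TGF-beta, activins and NODAL act through SMAD2 and SMAD3, while BMPs act through SMAD1, SMAD5 and SMAD9. In the foetal gonad, BMPs are known for promoting entry of XX germ cells into meiosis together with retinoic acid, and NODAL is known as a signal made and received by XY germ cells. ACVR2A and ACVR2B are type II receptors for activins, NODAL and several BMPs, and BMPR2 is a type II receptor for BMPs. ACVR1B, TGFBR1 and BMPR1A are type I receptors for activin and NODAL, for TGF-beta, and for BMPs.

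Sequence upstream of the members was read from RefSeq (GRCm38.p6), which gave an entry for 8 of them. The 250 bases before each start site were searched on both strands for the ETS core CCGGAAG, bound by a factor family downstream of ERK, for the STRA8 motif CNCCTCAG, bound by the regulator of meiotic entry, and for the Smad palindrome GTCTAGAC. Among 32851 promoters of the same length, 6.91% held the ETS core, 6.42% the STRA8 motif and 0.167% the Smad palindrome. Of the members, Bmpr1a alone held one of these strings, a single STRA8 motif on the strand opposite to the gene. It is shown with the motif in capitals, and it lies in bases that some GENCODE transcripts place in the first exon. The stretch before Tgfbr1, the member with the earliest sex difference, is shown beside it as a window without a match, up to the first base that GENCODE places in an exon. A match is a string of letters, and no binding was measured here.
Bmpr1a, chr14:34502641-34502670, minus strand: gtcctccgcggCTGAGGCGgcagagattgg
Tgfbr1, chr4:47352972-47353133, plus strand: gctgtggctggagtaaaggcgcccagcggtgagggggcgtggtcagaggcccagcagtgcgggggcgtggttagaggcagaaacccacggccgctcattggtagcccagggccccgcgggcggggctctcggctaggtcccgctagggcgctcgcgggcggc

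Libraries held 1178953 to 5199153 UMI-collapsed counts (median 2135128.5). All 8 germ cell markers had counts in all 40 libraries, and their summed level was between 2121 and 5818 CPM (counts scaled to a common total per library). The 27 markers of somatic and blood cells summed to 51.5 to 544 CPM per library. Their sum was highest with MEKi at 24 h (252 to 544 CPM), whereas the 4 groups at 72 h were between 110 and 187 CPM. Insl3, a Leydig cell marker, had no count in any library. The Y-linked genes checked summed to 128 to 229 CPM in XY and 0.836 to 19.3 CPM in XX libraries. In XX they were highest at 24 h (5.60 to 19.3 CPM), against at most 4.90 CPM at 0 h and 4.82 CPM at 72 h. Libraries were made in 2 pools. Between the pools, 16 index pairs were shared. In 1 alternative fit, 3.25% of the counts of the pool 2 partner were taken out of each such pool 1 library. That share was estimated from Y-linked counts in XX 24 h libraries. Pool 1 held both 0 h groups, the 24 h DMSO groups and 24 h MEKi, and pool 2 held 24 h FGFRi and all 72 h groups, so comparisons of 72 h with 0 h or 24 h, and of 24 h FGFRi with another 24 h group, cannot be told apart from a difference between pools.

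Depth differed between members. Acvr2b had 119 to 961 counts per library, whereas Acvr1b had 3 to 93, Smad3 6 to 71, Acvr2a 9 to 79 and Bmpr2 10 to 285. The other members had at least 36 counts in each library. Priming was at the poly(A) tail and counts were not divided by transcript length, so levels are compared between groups within a gene and not between genes. In sorted cells, fewer cells of a type and less RNA per cell cannot be told apart.

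**Figure D1:**
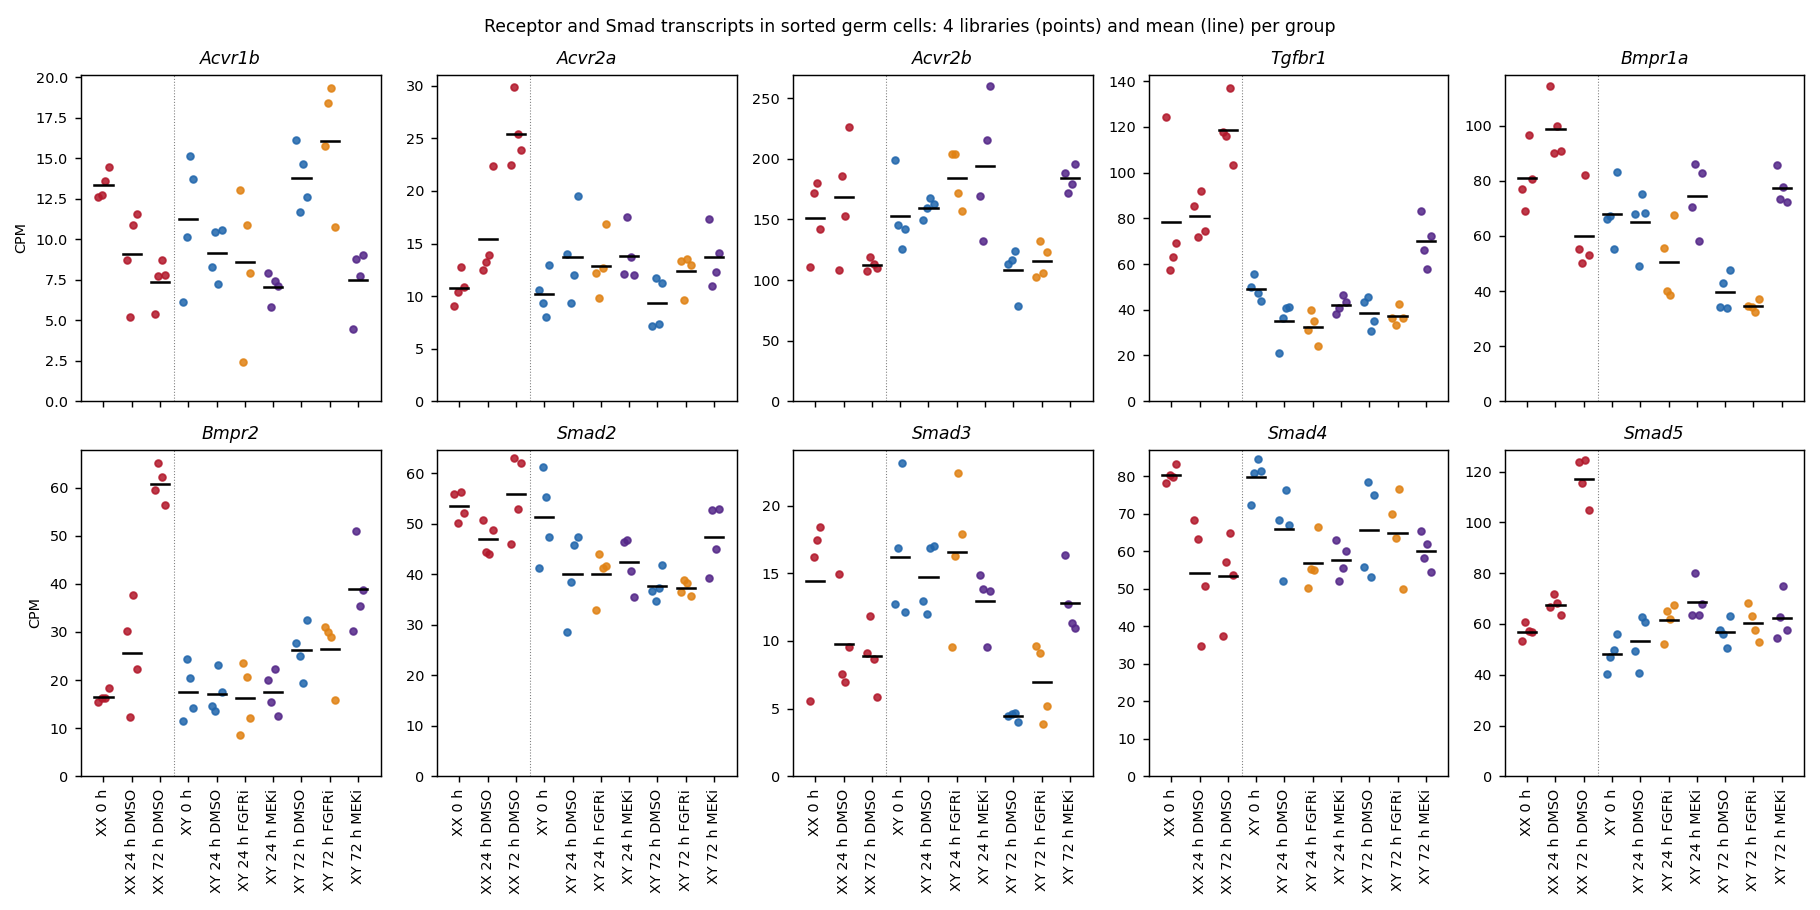
CPM of the 10 members (y axis, from 0) in each of the 40 libraries (points), by group (x axis), with the group mean as a line; red points are XX, blue points XY at 0 h or in DMSO, orange FGFRi and purple MEKi. The 4 XX 72 h libraries lie above every XY library for Acvr2a, Tgfbr1, Bmpr2 and Smad5, and the XY 72 h DMSO libraries hold the lowest group mean of Smad3, 4.43 CPM.

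Across the 10 groups, the fitted level of Bmpr2 varied the most, by 3.82-fold between XX 72 h and XY 24 h FGFRi, and Smad2 the least, by 1.49-fold. XX germ cells at 72 h held the highest mean of Acvr2a, Tgfbr1, Bmpr2, Smad2 and Smad5. For Smad5 the XX 72 h mean, 117 ± 9.13 CPM (SD, n = 4), stood apart from the next group in order (FDR = 1.68e-07, limma), and the other 9 groups, from 48.3 to 68.8 CPM, did not differ between neighbours. The same held for Acvr2a, where XX 72 h (25.4 ± 3.23 CPM) differed from XX 24 h (15.5 ± 4.62 CPM, FDR = 0.00526) and no other neighbours differed. Tgfbr1 split into more steps, with XX 72 h above XX 24 h (FDR = 0.00144) and XY 72 h MEKi above XY 0 h (FDR = 0.0186). Bmpr2 also had a step on each side of XY 72 h MEKi, below XX 72 h (FDR = 0.0014) and above XY 72 h DMSO (FDR = 0.0161). Acvr2b differed between neighbours only where XX 0 h stood above XY 72 h FGFRi (FDR = 0.00965). The orders of Acvr1b, Bmpr1a, Smad2, Smad3 and Smad4 had no neighbours that differed. Over all 45 pairs of groups, Tgfbr1 and Bmpr2 each differed by more than 1.5-fold in 12 pairs, and Acvr1b, Acvr2b, Smad2 and Smad4 in none, where an average tested gene was called in 20.7% of pairs.

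XX and XY germ cells were compared at each time to ask when the receptors and Smads become sexually dimorphic. Tgfbr1 was lower in XY at all 3 times, Bmpr1a at 24 h and 72 h, and Acvr2a, Bmpr2, Smad2, Smad3 and Smad5 at 72 h, when Acvr1b and Smad4 were higher in XY. In limma, with FDR over all tested genes, 0 of 10 members differed by more than 1.5-fold at 0 h, 1 at 24 h and 4 at 72 h, which is near the share of all tested genes at each time (3%, 9.99% and 41%). In the test against no change, 1, 2 and 9 members differed at 0 h, 24 h and 72 h, beside 24.2%, 38.8% and 67.4% of all tested genes, and the count at 24 h was 4 without XY 24 h DMSO replicate 5. At 0 h, no member had an unadjusted treat p under 0.05, and edgeR and DESeq2 called none by more than 1.5-fold. The median log2 fold change (XY less XX) of the 10 members was -0.08 at 0 h, -0.14 at 24 h and -0.75 at 72 h, against 0.03, -0.01 and 0.10 over all tested genes. Each of these comparisons lay within 1 pool. XX and XY libraries did not overlap for 1 member at 0 h, 3 at 24 h and 8 at 72 h. The shares of all tested genes without overlap were 21.4%, 33.2% and 58.5%.

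**Figure D2:**
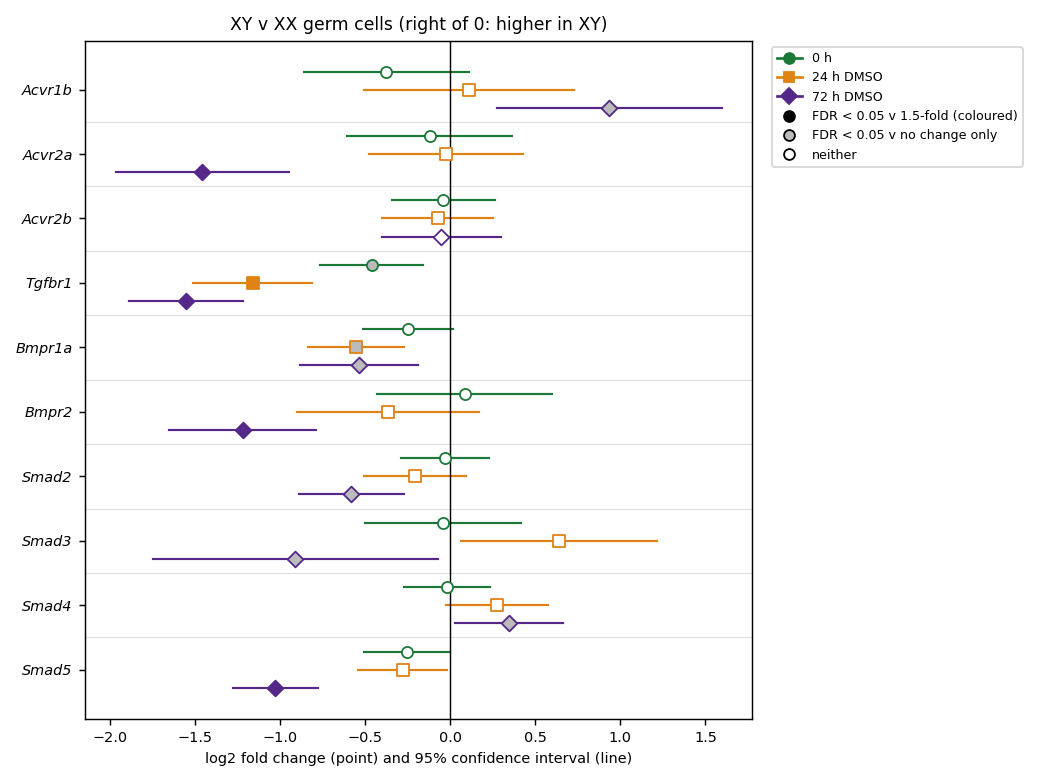
log2 fold change of XY v XX germ cells (x axis, with its 95% confidence interval) for the 10 members (y axis) at 0 h (circles), 24 h (squares) and 72 h (diamonds); coloured fills mark FDR under 0.05 against 1.5-fold, grey fills against no change only, and open symbols neither. Tgfbr1 lies left of 0 at all times, at -0.46, -1.16 and -1.55, and the 72 h points of Acvr2a, Bmpr2 and Smad5 lie at -1.46, -1.22 and -1.03.

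Among the type II receptors, Acvr2a (ENSMUSG00000052155, chromosome 2, 48703743 to 48793283, GRCm39, plus strand) separated the sexes at 72 h. It was at 22.5, 29.9, 25.4 and 23.9 CPM in the XX libraries and 7.16, 11.7, 7.32 and 11.3 CPM in the XY libraries. All XX libraries lay above all XY libraries. The log2 fold change was -1.46 ± 0.25 (SE; 2.75-fold lower in XY, FDR = 0.00199 against 1.5-fold). At 0 h (-0.12, 95% CI -0.61 to 0.36) and at 24 h (-0.03, 95% CI -0.48 to 0.43) Acvr2a did not pass, and its sex difference at 72 h was larger than that at 24 h (-1.43 ± 0.34, FDR = 0.000380 against no change). Its exons share 3081 bases with the antisense gene Orc4, those of Acvr2b 1471 with 4930516B21Rik and those of Bmpr1a 735 with Gm17110, and per the authors' code reads were assigned by strand. On the same strand, which this does not separate, exons of Smad5 share 127 bases with Gm55294 and those of Bmpr2 57 with ENSMUSG00000144256. Neither of these genes was among those counted.

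Bmpr2 (ENSMUSG00000067336, chromosome 1, 59802544 to 59918173, plus strand) was at 59.4, 65.04, 62.2 and 56.3 CPM in XX and 27.7, 25.1, 19.3 and 32.5 CPM in XY libraries at 72 h. The sexes were far apart, with 60.7 ± 3.76 v 26.2 ± 5.51 CPM (mean ± SD, n = 4), a log2 fold change of -1.22 ± 0.22 and FDR = 0.00738 against 1.5-fold. At 0 h the level was 16.6 ± 1.28 CPM in XX and 17.6 ± 5.91 CPM in XY, and the groups overlapped. The third type II receptor, Acvr2b (ENSMUSG00000061393, chromosome 9, 119231103 to 119271213, plus strand), had close means in XX and XY at each time, 151 v 153, 168 v 159.9 and 112 v 108 CPM. Its sex difference at 72 h was -0.05 (95% CI -0.40 to 0.30), so that an effect of over 1.5-fold in either direction lay outside the interval. Acvr2b was the member with the deepest counts.

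Among the type I receptors, Tgfbr1 (ENSMUSG00000007613, chromosome 4, 47353134 to 47414931, plus strand) had the earliest sex difference. At 0 h it was at 124, 57.5, 63.2 and 69.1 CPM in XX and 50.02, 55.5, 47.2 and 43.9 CPM in XY libraries. The sexes did not overlap, but 1 XX library stood well above the others. The log2 fold change was -0.46 ± 0.15 (FDR = 0.0192 against no change), and the call was lost without XX 0 h replicate 2 (-0.34, FDR = 0.0715) or XY 0 h replicate 6 (-0.40, FDR = 0.0804), or without a filter on low counts (-0.41, FDR = 0.0940). At 24 h Tgfbr1 was at 85.3, 71.8, 92.2 and 74.6 CPM in XX and 21.3, 36.5, 40.6 and 41.4 CPM in XY libraries. Every XX library was above every XY library, with a log2 fold change of -1.16 ± 0.17 (2.24-fold lower in XY, FDR = 0.0118 against 1.5-fold), which became -0.96 (FDR = 0.103) without XY 24 h DMSO replicate 2. At 72 h the values were 118, 116, 137 and 104 CPM in XX and 43.4, 45.6, 30.6 and 35.2 CPM in XY libraries. The log2 fold change was -1.55 ± 0.17 (2.94-fold lower in XY, FDR = 1.58e-06 against 1.5-fold), and the sex difference at 72 h exceeded that at 0 h (-1.09 ± 0.23, FDR = 5.44e-05 against no change). Its change from 24 h to 72 h was -0.39 (95% CI -0.88 to 0.09) and did not pass, though without XY 24 h DMSO replicate 2 it was -0.60 and passed (FDR = 0.0232).

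Bmpr1a (ENSMUSG00000021796, chromosome 14, 34132687 to 34225379, minus strand), a type I receptor of BMPs, was lower in XY at 24 h (65.1 v 98.97 CPM, log2 fold change -0.55 ± 0.14, FDR = 0.00120) and at 72 h (39.7 v 60.1 CPM, -0.54 ± 0.17, FDR = 0.00557), both against no change. The size of the difference was alike at the later times, -0.55 and -0.54, and its change between them was 0.02 (95% CI -0.43 to 0.47). Acvr1b (ENSMUSG00000000532, chromosome 15, 101071921 to 101111565, plus strand), the activin and NODAL type I receptor, went the other way. At 72 h it was at 5.35, 7.74, 8.70 and 7.76 CPM in XX and 16.1, 11.7, 14.6 and 12.6 CPM in XY libraries. The XY libraries were all higher, by 1.91-fold (log2 fold change 0.93 ± 0.33, FDR = 0.0109 against no change), and the call was lost without XX 72 h DMSO replicate 11 (0.77, FDR = 0.0581). Counts of Acvr1b were low, with 10 to 15 per XX library at 72 h.

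Among the receptor-regulated Smads, Smad5 (ENSMUSG00000021540, chromosome 13, 56850797 to 56890190, plus strand), which carries BMP signals, was at 124, 116, 124 and 105 CPM in XX and 57.7, 56.01, 50.6 and 63.03 CPM in XY libraries at 72 h. Each XX library held well above the highest XY library. The log2 fold change was -1.03 ± 0.12 (2.04-fold lower in XY, FDR = 0.00138 against 1.5-fold), and the sex difference exceeded that at 24 h (-0.75 ± 0.18, FDR = 0.000463 against no change). Smad2 (ENSMUSG00000024563), a carrier of activin, NODAL and TGF-beta signals, was lower in XY at 72 h by a smaller step, 37.6 v 55.99 CPM (log2 fold change -0.58 ± 0.15, FDR = 0.000778 against no change). Smad3 (ENSMUSG00000032402, chromosome 9, 63554049 to 63665476, minus strand), which acts beside SMAD2, was at 8.87 CPM in XX and 4.43 CPM in XY at 72 h (-0.91 ± 0.42, FDR = 0.0496 against no change). This Smad3 call was close to the threshold and was lost on leaving out 7 of the 8 libraries in turn, with values between -0.93 and -0.72, and in 3 of 10 alternative settings. Smad4 (ENSMUSG00000024515), the common partner, had the smallest called difference, 65.7 v 53.3 CPM (0.35 ± 0.16, FDR = 0.0499), and this call was lost in 9 of 10 alternative settings and without 5 of the 8 libraries, with the lowest value, 0.17 (FDR = 0.38), without XX 72 h DMSO replicate 11.

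The course of each sex from 0 h to 72 h was compared to ask how the members changed over the culture. XX germ cells gained Bmpr2, Acvr2a and Smad5 and also Tgfbr1, and had less Acvr1b, Smad3, Smad4, Bmpr1a and Acvr2b at 72 h than at 0 h. XY germ cells had less Smad3, Bmpr1a, Acvr2b, Smad2 and Smad4 at 72 h, and no member that passed either limma test was higher. DESeq2 also called Bmpr2 (0.67, FDR = 0.0194) and Smad5 (0.34, FDR = 0.0254) higher in XY at 72 h against no change, and limma did so for both with RLE size factors or with the total count alone. The summed level of somatic and blood cell markers was 67.7 to 93.9 CPM in XX libraries at 0 h and 128 to 183 CPM at 72 h, without overlap, and the germ cell markers averaged 3128 and 2279 CPM. Their part in the XX changes was not tested. In limma, 3 of 10 members in XX and 1 in XY changed by more than 1.5-fold, beside 37.2% and 35.5% of all tested genes. Against no change the counts were 9 in XX and 5 in XY, beside 65.5% and 65.7% of all tested genes. The median log2 fold change of the 10 members was -0.20 in XX and -0.33 in XY, against -0.01 and 0.06 over all tested genes. These comparisons crossed the 2 pools, and both sexes crossed them alike. Libraries at 72 h and 0 h did not overlap for 5 members in XX and 3 in XY, beside 55.6% of all tested genes in each sex. Between 24 h and 72 h these counts were 5 and 4, beside 45.3% and 48.5% of all tested genes.

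**Figure D3:**
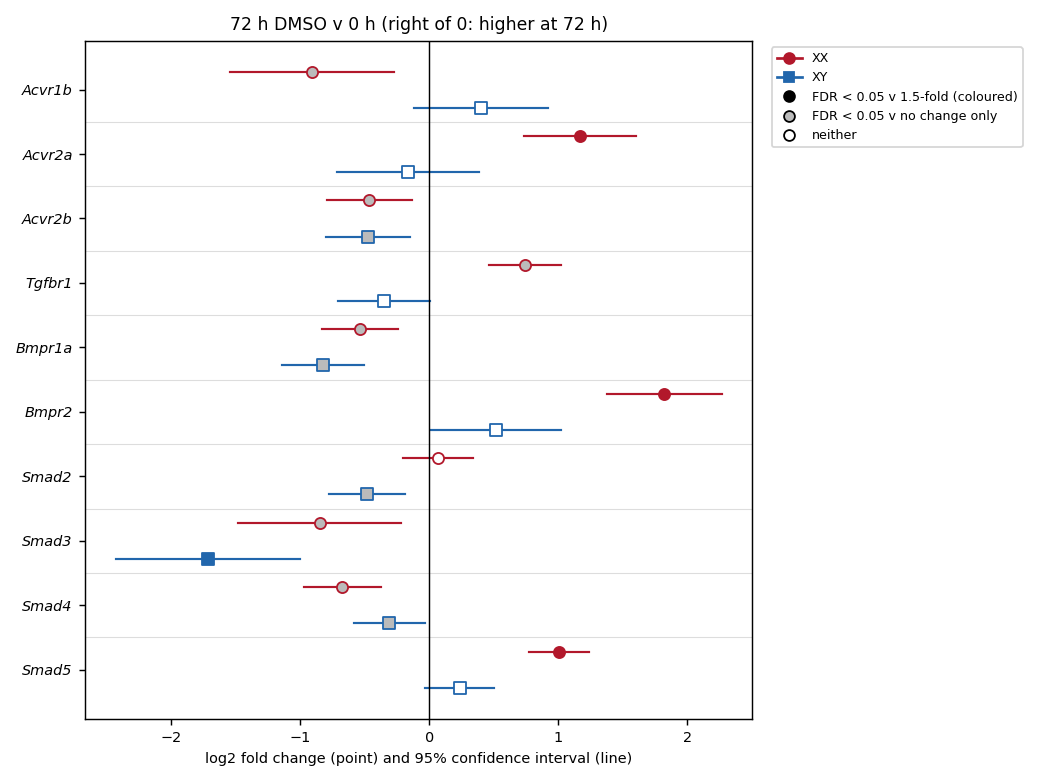
log2 fold change of 72 h DMSO v 0 h (x axis, with its 95% confidence interval) for the 10 members (y axis) in XX (red circles) and XY (blue squares) germ cells; coloured fills mark FDR under 0.05 against 1.5-fold, grey fills against no change only, and open symbols neither. Bmpr2 lies at 1.82 in XX and 0.52 in XY, and Smad3 at -0.85 and -1.71.

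Bmpr2, the BMP type II receptor, changed the most in XX. It was at 15.4, 16.2, 16.3 and 18.4 CPM at 0 h, 30.2, 12.3, 37.7 and 22.4 CPM at 24 h and 59.4, 65.04, 62.2 and 56.3 CPM at 72 h. The 24 h libraries were spread widely, and all 72 h libraries lay above them. Bmpr2 rose 3.54-fold from 0 h to 72 h (log2 fold change 1.82 ± 0.22, FDR = 2.83e-06 against 1.5-fold) and 2.69-fold from 24 h to 72 h (FDR = 0.00194), and the latter call became 1.10 on the log2 scale (FDR = 0.0574) without XX 24 h DMSO replicate 5. Acvr2a rose 2.25-fold (1.17 ± 0.22, FDR = 0.0143; 1.09, FDR = 0.0553, without XX 72 h DMSO replicate 4), and Smad5 rose 2.01-fold (1.01 ± 0.12, FDR = 0.00126). Tgfbr1, with a log2 fold change of 0.74 ± 0.14, passed the test against no change only (FDR = 6.83e-06).

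Smad4 fell in XX by 24 h, from 80.5 ± 2.09 to 54.3 ± 15.1 CPM (-0.55 ± 0.14, FDR = 0.00205 against no change). At that step 1 of 10 members passed, beside 30% of all tested genes, and 0 by more than 1.5-fold, beside 3.23%. The first count was 2 in some fits. Smad3 passed without XX 0 h replicate 2 (-0.82, FDR = 0.0136), without XX 24 h DMSO replicate 4 (-0.92, FDR = 0.0292) or without a filter (-0.80, FDR = 0.0344), Bmpr2 without XX 24 h DMSO replicate 5 (0.73, FDR = 0.0219), and Acvr1b with shared-index counts taken out (-0.76, FDR = 0.0453). In XY the first step also had 1 call, Tgfbr1 (-0.51 ± 0.18, FDR = 0.0306, beside 24.8% of all tested genes), which was lost without XY 0 h replicate 2 or 3 and without XY 24 h DMSO replicate 2 or 3 (FDR = 0.056 to 0.184, values from -0.30 to -0.48). Smad2 passed at the XY step without XY 24 h DMSO replicate 5 (-0.60, FDR = 0.00803) or 4 (-0.46, FDR = 0.0278) or XY 0 h replicate 2 (-0.40, FDR = 0.0380). Acvr2a passed there without XY 24 h DMSO replicate 2 (0.66, FDR = 0.0407) or 3 (0.65, FDR = 0.0460). No member of either sex passed by more than 1.5-fold from 0 h to 24 h, where 2.94% of tested genes did in XY.

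Smad3 had the largest change in XY. It was at 12.7, 16.9, 23.2 and 12.1 CPM at 0 h, 12.96, 11.98, 16.8 and 17.04 CPM at 24 h and 4.48, 4.60, 4.66 and 3.98 CPM at 72 h. The 4 libraries at 72 h were nearly equal and all below the earlier ones, on 6 to 11 counts each. Smad3 fell 3.31-fold between 24 h and 72 h (-1.73 ± 0.36, FDR = 0.00639 against 1.5-fold) and 3.28-fold from 0 h (-1.71 ± 0.36, FDR = 0.00477). In XX, Smad3 was 14.4 ± 5.95 CPM at 0 h and 8.87 ± 2.48 CPM at 72 h (-0.85 ± 0.31, FDR = 0.0157 against no change), a call lost without XX 0 h replicate 5 (FDR = 0.0568) or XX 72 h DMSO replicate 8 (FDR = 0.0958). Some of the smaller calls from 0 h to 72 h were lost without a single library. In XY, Smad2 (-0.48 ± 0.15, FDR = 0.00320) was lost without XY 0 h replicate 3 (-0.35, FDR = 0.0613), Acvr2b (-0.48 ± 0.16, FDR = 0.00862) without XY 0 h replicate 2 (-0.37, FDR = 0.0523) or XY 72 h DMSO replicate 6 (-0.36, FDR = 0.0572), and Smad4 (-0.31 ± 0.14, FDR = 0.0421) without any of 5 libraries (FDR up to 0.211) and in 8 of 10 alternative settings (-0.18, FDR = 0.335 with DESeq2). In XX, Acvr1b (-0.91 ± 0.32, FDR = 0.0103) was lost without XX 72 h DMSO replicate 11 (-0.74, FDR = 0.0601), and Acvr2b (-0.46 ± 0.16, FDR = 0.0118) without XX 0 h replicate 4 (-0.36, FDR = 0.0752). Bmpr1a in XX passed without each library in turn. With DESeq2 the XX calls of Bmpr1a (-0.34, FDR = 0.0562), Acvr2b (-0.34, FDR = 0.0811) and Smad3 (-0.65, FDR = 0.0554) were lost, which left 6 of the 9. Between 24 h and 72 h the sex difference of Smad3 changed by -1.55 ± 0.51 (FDR = 0.00881 against no change).

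From 24 h to 72 h, 5 members passed the test against no change in XY and 6 in XX, beside 59.2% and 54.3% of all tested genes, and 1 in each sex passed by more than 1.5-fold, beside 27.3% and 22.2%. The XY count against no change was 3 without XY 24 h DMSO replicate 5 or XY 72 h DMSO replicate 2. Bmpr1a fell in both sexes, with log2 fold changes of -0.79 in XX and -0.77 in XY (FDR = 1.84e-05 and 5.02e-05 against no change). Acvr2b was also lower at 72 h than at 24 h in both, with -0.59 and -0.56 (FDR = 0.00342 and 0.00263), and the XX call was lost without XX 24 h DMSO replicate 9 (-0.38, FDR = 0.0773). Acvr2a rose in XX (0.70, FDR = 0.00526) and was lower in XY (-0.73, FDR = 0.0138), where the call was lost with DESeq2 (-0.47, FDR = 0.119), with 2 other settings, and without XY 24 h DMSO replicate 5 (-0.44, FDR = 0.214) or XY 72 h DMSO replicate 2 (-0.57, FDR = 0.0894). Bmpr2 was higher at 72 h than at 24 h in XY (0.58, FDR = 0.0492), a call lost without any of 6 of the 8 libraries (FDR = 0.0688 to 0.118) and in 4 of 10 alternative settings. The difference between the Acvr2a changes in XX and XY passed by more than 1.5-fold (-1.43 ± 0.34, FDR = 0.0326), but that call was lost without any of 6 libraries and in 6 of 10 alternative settings, with FDR up to 0.193. Of the members, 1 passed this test of a change in the sex difference by more than 1.5-fold and 4 against no change, beside 26.1% and 51.4% of all tested genes. From 0 h to 72 h these counts were 0 and 6, beside 28.9% and 54%, with 4 members at an unadjusted treat p under 0.05, 2 called by edgeR and 0 by DESeq2. From 0 h to 24 h they were 0 and 1, beside 0.452% and 9.88%.

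XY gonads were cultured with FGFRi or MEKi to ask how blocking FGF receptors or MEK1/2 affects the members. The 72 h MEKi group stood apart: Smad3, Bmpr1a, Acvr2b, Tgfbr1, Bmpr2 and Smad2 were higher and Acvr1b lower than in DMSO, and with FGFRi no member passed at either time in limma with all libraries. At 72 h with MEKi, 7 of 10 members passed the test against no change and 0 passed by more than 1.5-fold, beside 45.8% and 9.12% of all tested genes. Of the members, 2 had an unadjusted treat p under 0.05, edgeR called 2 (Bmpr1a and Smad3) and DESeq2 called 0, and 1 passed by more than 1.5-fold in limma without XY 72 h DMSO replicate 6. The median log2 fold change of the 10 members was 0.52, against 0.01 over all tested genes. With FGFRi at 72 h, 0 members passed either test in limma, edgeR or DESeq2, 0 had an unadjusted p under 0.05 against no change, and 1.08% of all tested genes passed that test (0.00656% by more than 1.5-fold). At 24 h, 0 members passed with either inhibitor in any of the 3 tools and 1 with each had an unadjusted p under 0.05 against no change, beside 5.89% of all tested genes with MEKi (0.164% by more than 1.5-fold) and 6.33% with FGFRi (0.262%). The inhibitor groups of one time shared their DMSO libraries. At 72 h, MEKi and DMSO libraries did not overlap for 5 members, beside 38.3% of all tested genes.

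**Figure D4:**
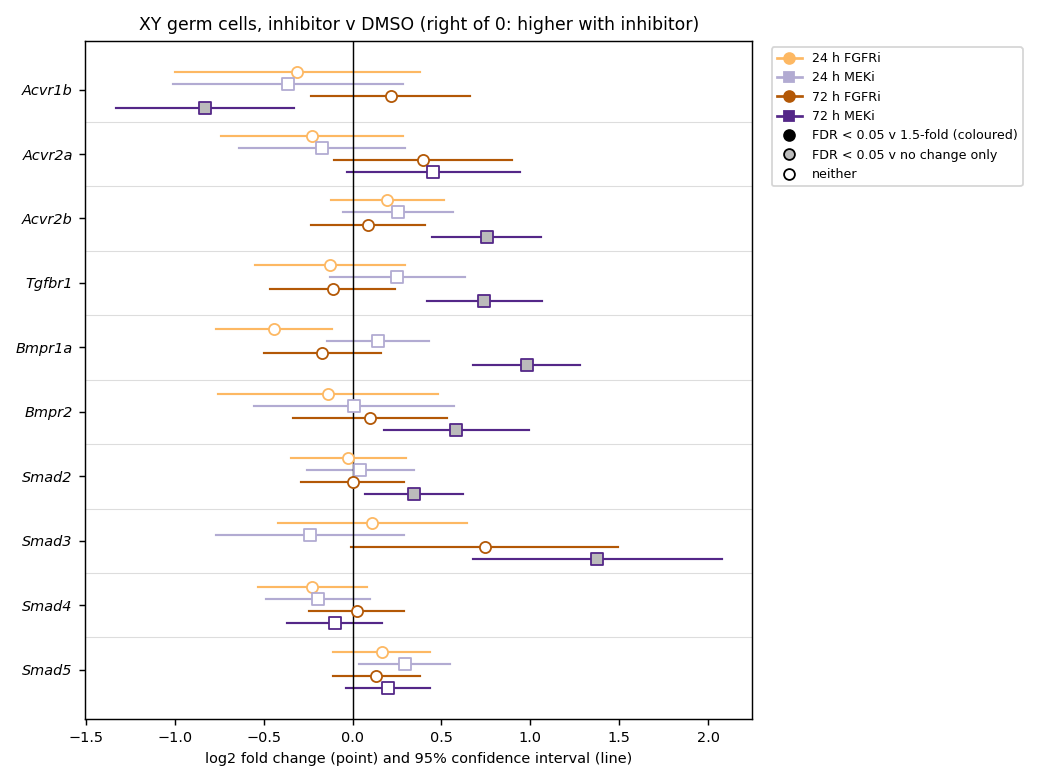
log2 fold change v DMSO (x axis, with its 95% confidence interval) of the 10 members (y axis) in XY germ cells with FGFRi (orange circles) or MEKi (purple squares) at 24 h (pale) and 72 h (dark); coloured fills mark FDR under 0.05 against 1.5-fold, grey fills against no change only, and open symbols neither. With MEKi at 72 h, Smad3 lies at 1.38, Bmpr1a at 0.98 and Acvr1b at -0.83.

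Bmpr1a had the clearest response. In the 72 h libraries it was at 85.9, 73.6, 77.9 and 72.5 CPM with MEKi and 34.02, 43.1, 33.95 and 47.8 CPM with DMSO. All MEKi libraries lay well above all DMSO libraries, with 77.5 ± 6.07 v 39.7 ± 6.87 CPM (mean ± SD, n = 4). The log2 fold change was 0.98 ± 0.15 (1.97-fold higher, FDR = 3.48e-07 against no change and 0.0585 against 1.5-fold). With FGFRi it was at 34.7, 34.3, 32.5 and 37.1 CPM, within or below the DMSO range. Against FGFRi at 72 h, Bmpr1a was higher with MEKi by more than 1.5-fold in limma (1.15 ± 0.14, FDR = 0.00102). At 24 h with MEKi the level was 74.4 ± 12.7 CPM, against 65.1 ± 11.3 with DMSO (0.14, 95% CI -0.15 to 0.43), and the MEKi effect at 72 h was larger than that at 24 h (0.84 ± 0.21, FDR = 0.00213 against no change).

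Smad3 had 16.4, 12.7, 11.3 and 10.97 CPM with MEKi and 4.48, 4.60, 4.66 and 3.98 CPM with DMSO at 72 h. The groups did not overlap, and the MEKi mean, 12.8 CPM, stood beside 14.7 CPM in XY at 24 h with DMSO. The log2 fold change was 1.38 ± 0.35 (2.60-fold higher, FDR = 0.000987 against no change, FDR = 0.116 against 1.5-fold), and it exceeded that at 24 h (1.62 ± 0.44, FDR = 0.00492 against no change). For Smad3 with FGFRi at 72 h the log2 fold change was 0.74 (95% CI -0.01 to 1.5), and the libraries, at 9.64, 9.08, 3.87 and 5.17 CPM, overlapped the DMSO group. MEKi was higher than FGFRi for Smad3 by 0.63 ± 0.25 (FDR = 0.0277 against no change), a call lost without XY 72 h FGFRi replicate 5 or 6 or MEKi replicate 3 (FDR = 0.0553 to 0.0842).

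Acvr2b was at 189, 172, 179.6 and 196 CPM with MEKi and 113, 117, 124 and 78.96 CPM with DMSO (1.69-fold higher, 0.75 ± 0.15, FDR = 5.11e-05 against no change), and Tgfbr1 at 83.4, 66.1, 57.9 and 72.5 and 43.4, 45.6, 30.6 and 35.2 CPM (1.67-fold higher, 0.74 ± 0.16, FDR = 0.000160). In both genes the lowest MEKi library was above the highest DMSO library. Bmpr2 (0.58 ± 0.20, FDR = 0.0160) passed by less, and its call was lost without XY 72 h DMSO replicate 5 (0.48, FDR = 0.0671) or MEKi replicate 3 (0.45, FDR = 0.0901) and with DESeq2 (0.52, FDR = 0.0732). Smad2 (0.35 ± 0.14, FDR = 0.0357) was lost without any of 5 of the 8 libraries, with values from 0.31 to 0.35, and with edgeR (FDR = 0.0515), DESeq2 (FDR = 0.0979) or RLE size factors (FDR = 0.0871). Acvr1b was lower with MEKi, at 4.47, 8.77, 7.73 and 9.01 CPM against 16.1, 11.7, 14.6 and 12.6 CPM with DMSO (1.78-fold lower, -0.83 ± 0.25, FDR = 0.00536), with no overlap, and this call was lost without a filter on low counts (FDR = 0.109). Acvr2a (0.46, 95% CI -0.03 to 0.94), Smad5 (0.20, 95% CI -0.04 to 0.44) and Smad4 (-0.10, 95% CI -0.37 to 0.17) did not pass, and these intervals do not show equality.

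With FGFRi at 72 h the log2 fold changes of the 10 members ran from -0.17 to 0.74, and their 95% CIs together from -0.50 to 1.5. The corresponding ranges at 24 h were -0.44 to 0.20 with CIs from -1.0 to 0.64 for FGFRi, which was compared across pools, and -0.36 to 0.29 with CIs from -1.01 to 0.63 for MEKi. At 24 h, Smad5 with MEKi (95% CI 0.04 to 0.55, FDR = 0.180) and Bmpr1a with FGFRi (95% CI -0.77 to -0.12, FDR = 0.0908) had intervals that left out 0 but did not pass over all genes. Bmpr1a with FGFRi passed without XY 24 h DMSO replicate 3 (-0.52, FDR = 0.0428) or FGFRi replicate 5 (-0.61, FDR = 0.0278). Markers of somatic and blood cells were also highest in the 24 h MEKi libraries, as given above, and their part in these values was not tested. Comparing the inhibitors with each other at 72 h, 7 of 10 members differed against no change and 1 by more than 1.5-fold, beside 52.1% and 12.7% of all tested genes. DESeq2 did not call Bmpr2 (FDR = 0.0778) and Smad2 (FDR = 0.0668) against no change. Without XY 72 h MEKi replicate 3 the first count was 4, and without MEKi replicate 4 the second was 2. The 7 were the same genes as in the comparison with DMSO, and Acvr1b was the only one lower with MEKi (-1.05 ± 0.22). At 24 h, 1 differed against no change (Bmpr1a, 0.58 ± 0.16, across pools), beside 4.27% of all tested genes, and 0 by more than 1.5-fold, beside 0.105%. That call was lost without any of 4 libraries (FDR = 0.0724 to 0.175) and in 2 of 10 alternative settings. From 24 h to 72 h the MEKi effect changed in 2 members against no change (Bmpr1a and Smad3) and 0 by more than 1.5-fold, beside 23.2% and 1.89% of all tested genes, with 1 at an unadjusted treat p under 0.05, 1 called by edgeR and 0 by DESeq2. The FGFRi effect changed in 0 members by either test, beside 4.51% and 0.0328%, with 0 at an unadjusted p under 0.05 and 0 called by edgeR or DESeq2. The 24 h FGFRi and DMSO groups lay in different pools, so a constant pool difference does not cancel in that change.

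XY germ cells with MEKi were then set beside XX germ cells at 72 h, to see how the MEKi levels compared to those of XX. Bmpr1a and Acvr2b were higher with MEKi than in XX, Acvr2a, Smad5, Tgfbr1 and Bmpr2 were lower, and the others did not pass. The Bmpr1a call was lost with DESeq2 (0.29, FDR = 0.111). Of 10 members, 6 differed against no change and 0 by more than 1.5-fold, beside 62.7% and 30% of all tested genes, and 2 had an unadjusted treat p under 0.05. edgeR called 2 and DESeq2 1 by more than 1.5-fold. In limma, Acvr2a passed by more than 1.5-fold without MEKi replicate 2 (FDR = 0.0313) or 5 (FDR = 0.0396). Smad5 did so without MEKi replicate 3 (FDR = 0.0477) or 4 (FDR = 0.00603) or XX 72 h DMSO replicate 8 (FDR = 0.0312). The log2 fold changes (MEKi less XX) were 0.44 ± 0.15 for Bmpr1a, 0.70 ± 0.16 for Acvr2b, -1.002 for Acvr2a, -0.83 ± 0.11 for Smad5, -0.81 ± 0.14 for Tgfbr1 and -0.64 ± 0.17 for Bmpr2. For Tgfbr1 the MEKi mean, 69.95 CPM, lay between the XY DMSO (38.7 CPM) and XX (119 CPM) means, and Bmpr2 was likewise between, at 38.8 CPM. Smad5 with MEKi was 62.4 ± 8.96 CPM, against 117 ± 9.13 CPM in XX.

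Within-library ratios of counts of related genes are unaffected by scaling between libraries and are given as a description. The ratio of Acvr2a to Acvr2b was 0.226 ± 0.0187 (mean ± SD, n = 4; 0.209 to 0.252) in XX at 72 h and between 0.068 and 0.109 as a mean in the XY groups. In XX it was 0.0726 ± 0.00926 at 0 h and 0.0940 ± 0.0183 at 24 h, within the range of the XY means. All XX 72 h libraries were above every XY library, the highest of which was at 0.143. The ratio of Smad2 to Smad3 was 8.56 ± 1.32 in XY at 72 h with DMSO and 3.84 ± 1.03 with MEKi, against 2.73 ± 0.417 at 24 h with DMSO. The MEKi libraries (2.39 to 4.82) did not overlap the DMSO libraries (7.55 to 10.5). With FGFRi at 72 h the ratio was 6.22 ± 2.81 (3.79 to 9.90), and these libraries overlapped both groups. The ratio of Smad1, another BMP Smad, to Smad5 was 0.583 ± 0.0319 with MEKi, 0.228 ± 0.0524 with DMSO and 0.105 ± 0.0256 in XX at 72 h. It was also high in XY at 0 h, 0.644 ± 0.127.

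**Figure D5:**
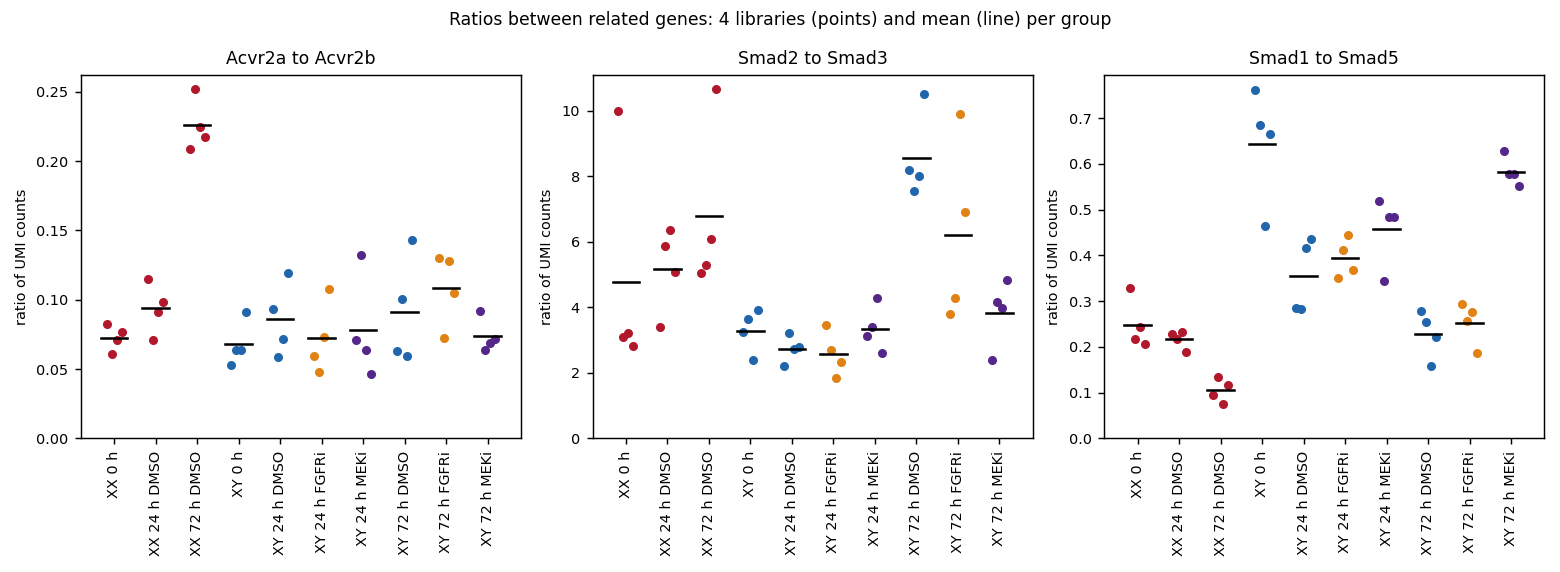
Ratio of counts within a library (y axis, from 0) for Acvr2a to Acvr2b, Smad2 to Smad3 and Smad1 to Smad5 in the 40 libraries (points) by group (x axis), with the group mean as a line. Smad1 to Smad5 with MEKi at 72 h lies at 0.551 to 0.627, above the DMSO libraries at 0.158 to 0.279.

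Other genes of the pathway were taken from 6 lists. The lists held other receptors and co-receptors (6 of 10 tested), other Smads (4 of 4), regulators of the pathway (14 of 14), ligands (12 of 17), antagonists (4 of 7) and known targets (10 of 11). With MEKi at 72 h, those past 1.5-fold were 0 receptors, 1 Smad, 1 regulator, 1 ligand, 2 antagonists and 5 targets, beside 9.12% of all tested genes. Smad1 was higher with MEKi, at 36.3 CPM against 13.1 CPM with DMSO (1.51 ± 0.22, FDR = 0.00116). The antagonists were Lefty1 (4.50 ± 0.46, 65.8 v 2.63 CPM with MEKi v DMSO) and Lefty2 (2.82 ± 0.43, 20.5 v 2.41 CPM), inhibitors of NODAL, and the ligand was Gdf3 (1.57 ± 0.32). Among the targets, Otx2 (3.18 ± 0.48), Id1 (1.73 ± 0.40) and Id2 (1.89 ± 0.47) were higher with MEKi and Id4 was lower (-1.15 ± 0.14). Nedd4l, a ubiquitin ligase, was lower (-1.12 ± 0.15). With FGFRi at 72 h no gene of these lists passed by more than 1.5-fold, and 1 target passed against no change, beside 1.08% of all tested genes. The median log2 fold change with MEKi was 1.75 over the 10 targets, 1.66 over the antagonists, 0.88 over the other Smads, 0.18 over the regulators, 0.11 over the ligands and -0.05 over the receptors, against 0.01 over all tested genes.

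Between XY and XX at 72 h, those past 1.5-fold were 4 receptors or co-receptors (3 higher in XY), 0 other Smads, 7 regulators (4 higher), 5 ligands (3 higher), 0 antagonists and 7 targets (2 higher), beside 41% of all tested genes. The median log2 fold changes were 1.12 over the receptors and co-receptors, 0.30 over the other Smads, 0.42 over the regulators, 0.56 over the ligands, 1.45 over the antagonists and -1.19 over the targets, against 0.10 over all tested genes. Among the receptors and co-receptors, Bmpr1b (3.63 ± 0.74), Tgfbr3 (1.99 ± 0.59) and Acvr1 (1.59 ± 0.42) were higher in XY and Amhr2, the AMH receptor, was lower (-2.07 ± 0.45). Inhbb (-1.92 ± 0.50) and Inha (-2.19 ± 0.28), subunits of activin and inhibin, were lower in XY, while Gdf3 (2.48 ± 0.67), Tgfb1 (2.97 ± 0.69) and Bmp7 (2.44 ± 0.30) were higher. Of the markers of ovarian supporting and gonadal somatic cells, Foxl2, Wnt4, Wt1, Gata4 and Nr5a1 had their highest group mean in the same XX libraries, at 9.41, 7.85, 23.4, 6.12 and 7.48 CPM, whereas Fst was higher in XY, 6.67 v 2.85 CPM (1.32 ± 0.55, FDR = 0.0308 against no change). Of the other markers, interstitial Nr2f2 (29.7 CPM), Leydig cell Star (9.40 CPM) and Hsd3b1 (15.3 CPM) and blood cell Ptprc (0.593 CPM) also had their highest group mean in XX at 72 h, and interstitial Pdgfra (11 CPM) and Tcf21 (4.93 CPM) and endothelial Cdh5 (9.72 CPM) had theirs in XY at 72 h with DMSO. All 27 somatic and blood cell markers summed to 128 to 183 CPM in XX and 156 to 174 CPM in XY at 72 h, and their part in these differences was not tested. Of the regulators, the ubiquitin ligases Nedd4l (3.43 ± 0.35) and Smurf1 (1.21 ± 0.21) were higher in XY, and Smurf2 (-1.17 ± 0.12), another of them, Zfyve9 (-1.91 ± 0.18), which presents Smads to the receptor, and Usp9x (-1.74 ± 0.13), a deubiquitinase, were lower. BMP targets Id1 (-4.48 ± 0.38), Id2 (-2.93 ± 0.48), Id3 (-3.53 ± 0.36) and Msx1 (-4.37 ± 0.65) were lower in XY, whereas Id4 (1.16 ± 0.18) was higher. The receptors Tgfbr2, Acvr1c and Acvrl1 were below the filter on low counts: Tgfbr2 had 83 counts in 32 of 40 libraries, Acvr1c 28 in 15 and Acvrl1 63 in 25.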

How the data were processed

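Sorted germ cells of 40 libraries in 10 groups of 4 were profiled by RNA-seq with poly(A) priming, an index and a UMI per molecule. Per the labels and methods, the authors demultiplexed reads with scPipe, aligned them to GRCm39 with Rsubread, and deposited whole-number UMI counts per gene, not normalised (the GENCODE release was not given in the sources used here). Here, genes with low counts were filtered by filterByExpr (min count 10, min total count 15), which left 15252 of 42422 genes with 99.2% of the counts. Counts were scaled by TMM in edgeR 4.0.16, fitted by voom with quality weights in limma 3.58.1 (R 4.3.3) in 1 model of the 40 libraries with a mean for each group, and tested against 1.5-fold (treat) and against no change, with Benjamini-Hochberg FDR under 0.05 over all tested genes. edgeR, DESeq2 1.42.0, other scalings and filters, and leaving out each library were alternatives. Symbols came from GENCODE M39, which matched 40391 genes (the other 2031 held 1.05% of counts). Total counts were 1178953 to 5199153 per library, and low-count members are less precise. On data simulated for MEKi v DMSO at 72 h with 15252 genes, 100 genes were changed 2-fold and 100 were changed 4-fold. The 1.5-fold test called 12% and 72% of these, and the test against no change 61% and 89%. In the measured comparison, 1391 genes (9.12%) passed the 1.5-fold test. The FDR cut-off depends on how many genes change, so the simulated shares hold for that setting only. The members and lists were chosen with earlier results of these data known. Named genes were the 10 members in every comparison, genes of the 6 lists past 1.5-fold in a comparison described, and for each member the 3 genes with the highest correlation of group means, and a few of these genes are not reported here.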

Additional observations from a re-analysis of the deposited data

Results flagged for a closer look

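Of 100 groups of 4 libraries (10 members in 10 groups), 5 had 1 library far from the other 3 by Dixon's criterion, and 5 are given by chance. Acvr2a in XX at 24 h was at 22.4 CPM in replicate 9, and with FGFRi at 72 h at 9.59 CPM in replicate 4. Bmpr1a in XX at 72 h was at 82.3 CPM in replicate 7. Bmpr2 with FGFRi at 72 h was at 15.95 CPM in replicate 6, and Smad3 in XX at 0 h was at 5.60 CPM in replicate 2.

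Of 50 tests of a change in an effect between times, each a test of the difference itself in limma with FDR over all tested genes, 13 passed against no change. The shares of all tested genes that passed were 9.88%, 51.4% and 54% for the changes in sex difference (24 h less 0 h, 72 h less 24 h and 72 h less 0 h), 23.2% for that in the MEKi effect and 4.51% for that in the FGFRi effect, and over the 5 changes the members were called about as often as all tested genes. For the sex difference (XY less XX, log2) at 24 h less 0 h, Tgfbr1 changed by -0.70 ± 0.23 (SE; FDR = 0.0416). Tgfbr1 no longer passed under 5 of 10 alternative settings, nor in 9 of 16 fits without 1 library, and without XY 24 h DMSO replicate 2 the change was -0.49 (FDR = 0.140). For 72 h less 24 h, the changes were -1.43 ± 0.34 for Acvr2a (FDR = 0.000380), -0.85 ± 0.34 for Bmpr2 (FDR = 0.0335), -1.55 ± 0.51 for Smad3 (FDR = 0.00881) and -0.75 ± 0.18 for Smad5 (FDR = 0.000463). Bmpr2 no longer passed under 7 of 10 alternative settings, nor in 6 of 16 fits without 1 library, and without XX 24 h DMSO replicate 5 the change was -0.52 (FDR = 0.184). For 72 h less 0 h, Acvr1b changed by 1.31 ± 0.41 (FDR = 0.00569), Acvr2a by -1.34 ± 0.35 (FDR = 0.00113) and Tgfbr1 by -1.09 ± 0.23 (FDR = 5.44e-05). Over the same span Bmpr2 changed by -1.30 ± 0.34 (FDR = 0.000901), Smad2 by -0.55 ± 0.20 (FDR = 0.0171) and Smad5 by -0.77 ± 0.18 (FDR = 0.000212). Smad2 no longer passed with total-count scaling (FDR = 0.103), without a filter (FDR = 0.156), or without XY 0 h replicate 3 (FDR = 0.0943) or XX 72 h DMSO replicate 8 (FDR = 0.0508). For the MEKi effect at 72 h less 24 h, Bmpr1a changed by 0.84 ± 0.21 (FDR = 0.00213) and Smad3 by 1.62 ± 0.44 (FDR = 0.00492).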

How the results depend on the processing

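No call reversed its direction under any alternative. Of 13 calls by more than 1.5-fold, 9 were kept in all settings and 4 were lost without a library, and of 73 calls against no change, 47 were kept in all. Testing against no change in place of 1.5-fold gave, for XY v XX, 1 member at 0 h, 2 at 24 h and 9 at 72 h, for XY over time 1 (24 h v 0 h), 5 (72 h v 24 h) and 5 (72 h v 0 h), and for XX 1, 6 and 9. It gave 7 for MEKi at 72 h, 1 and 7 for MEKi v FGFRi at 24 h and 72 h, 6 for MEKi v XX, 1, 4 and 6 for the changes in sex difference (24 h less 0 h, 72 h less 24 h, 72 h less 0 h) and 2 for the change in MEKi effect. Counts by more than 1.5-fold moved with edgeR to 2 for MEKi at 72 h, MEKi v FGFRi at 72 h, MEKi v XX and both changes in sex difference at 72 h, and to 1 for the change in MEKi effect. With DESeq2 they were 2 for XX 72 h v 24 h, 1 for MEKi v XX and 0 for the 72 h less 24 h change in sex difference. RLE scaling gave 2 for XX 72 h v 24 h and 2 for MEKi v XX, and scaling by total count alone gave 1 for MEKi at 72 h and 0 for the 72 h less 24 h change. That change was also 0 without a filter, with CPM over 1 in at least 4 libraries, with voom without quality weights (1 for MEKi v XX) and with only the groups compared (1 for MEKi at 72 h). The 72 h less 0 h change was 1 without a filter, with only the groups compared and with the replicate block, and 2 with shared-index counts taken out, as was MEKi v XX. Counts against no change moved without a filter to 0 for XY v XX at 0 h and XY 24 h v 0 h, 3 for XY 72 h v 24 h and 2 for XX 24 h v 0 h. They moved with shared-index counts taken out to 2 for XX 24 h v 0 h, and with voom without quality weights to 3 for XY 72 h v 24 h. MEKi v FGFRi at 24 h went to 0 with voom without quality weights and with only the groups compared, and the 24 h less 0 h change to 0 with edgeR, DESeq2, CPM over 1, voom without quality weights and only the groups compared. Leaving out 1 library each gave, by more than 1.5-fold, 0 to 1 for XY v XX at 24 h, XX 72 h v 24 h, MEKi at 72 h, MEKi v XX and the 72 h less 24 h change, 1 to 2 for MEKi v FGFRi at 72 h and 0 to 2 for the 72 h less 0 h change. Against no change it gave 0 to 1 for XY v XX at 0 h, FGFRi at 24 h, MEKi v FGFRi at 24 h and the 24 h less 0 h change, 2 to 4 for XY v XX at 24 h, 0 to 2 for XY 24 h v 0 h, 3 to 5 for XY 72 h v 24 h, 1 to 2 for XX 24 h v 0 h and 4 to 7 for MEKi v FGFRi at 72 h. The cause of these changes was not tested.

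Scaling by total count moved the median of all genes by 0.11 (log2) for MEKi at 72 h and 0.22 for MEKi v XX, and the share of 1.5-fold calls that were higher from 43.9% to 58.9% and from 57.3% to 71.6%. For the change in MEKi effect that share was 64.2%, 81.6% by total count and 54.1% with RLE. Replicate numbers were not treated as pairs: same-numbered libraries had correlations of deviations from -0.101 to 0.119 over 58 XY pairs and from -0.008 to -0.0005 over 4 XX pairs, and the replicate block had a consensus correlation of -0.0366. Low counts limit Acvr1b, Acvr2a and Smad3, which had libraries with 3, 9 and 6 counts.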

Other observations

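Each member was set beside all tested genes by the Pearson correlation of its log2 CPM group means over the 10 groups, given as a description. The points share libraries, pools and depth, and the closest of 15252 genes will lie near 1. Bmpr2 was most like Kif1b (r = 0.986), Erbin and Ago3, Tgfbr1 like Ints6l (0.982), Nmt2 and Otud1, and Smad5 like Sugct (0.981), D130020L05Rik and C330013E15Rik. Acvr2a was most like Ric3 (0.979) and Ccdc18, Acvr2b like Trap1a (0.973), 2410022M11Rik and H2az1, and Bmpr1a like Gm27029 (0.967), Neil3 and Add3. Smad3 was most like Ttc9c (0.964), Yars2 and Usp50, Smad2 like Mms22l (0.960), Baz1b and Ppp3cb, Acvr1b like Uhmk1 (0.958), Cnot11 and Stx3, and Smad4 like Sfpq (0.938), Tspan1 and Bambi. Among the members, Acvr2a and Smad5 (0.913), Tgfbr1 and Smad2 (0.870) and Acvr2b and Smad3 (0.810) were closest, and Acvr2a and Smad4 (-0.709) lay farthest apart.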
